A study of Homo sapiens with 8 samples.

Results

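The mock RNA of C4-2 cells was compared with the mock RNA of PC3 cells, gene by gene, on 2-color expression arrays. The comparison used 4 of the 8 arrays in the series, chosen by the cell line in the labels: 1 C4-2 array and 3 PC3 arrays. Both are human prostate cancer lines. PC3 was derived from a bone metastasis, and C4-2 is a castration-resistant derivative of the androgen-sensitive LNCaP line. Every array carried Cy3-labeled RNA of mock cells, which the labels give as not transfected, beside Cy5-labeled RNA of treated cells of the same line. For PC3 the Cy5 partners were bisamide for 24 h (the array of PC3 mock 1), bisamide for 48 h (mock 2) and miR-125b-1-3p (mock 3), and for C4-2 the partner was miR-199-3p. The growth medium was RPMI 1640 or DMEM, transfections used Lipofectamine RNAiMAX, and total RNA was extracted with Trizol and labeled after linear amplification with a low-input kit. The other arrays held mock RNA of the renal cancer line 786-O and of the bladder cancer line T24, and served only to place the prostate lines beside other cells. The arrays were made to find genes that change on treatment, and the mock channel gives the baseline from which each line started.

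Androgen switches on genes that mark the luminal, secretory cells of the prostate, among them the kallikrein proteases KLK3 and KLK2. Luminal prostate cells express E-cadherin and other junction proteins, whereas basal cells carry integrins, laminins and keratins of their own. Prostate cancer lines differ in how much of either state they keep, and the LNCaP lineage and PC3 are widely used as the androgen-responsive and the androgen-unresponsive example.

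Values are log2 Cy3 intensities after background correction and quantile normalization over the 4 arrays, and differences are C4-2 minus the mean of the 3 PC3 mocks. A gene was called when its adjusted p was under 0.05 (limma, Benjamini-Hochberg over all genes tested) and its difference was at least 1 in size, which is 2-fold. An unexpressed gene lies near 5.8 on this scale, and an offset of 50 in the background correction makes the difference of a dim gene smaller than its true size. The spread came from the 3 PC3 mocks, which leave 2 residual degrees of freedom, and the single C4-2 array was assumed to vary like them. The labels do not say that the PC3 mocks came from separate cultures, so the p-values measure the spread between these samples, which may be technical. All arrays lay on 1 slide and were read in 1 scan.

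The C4-2 array was dimmer than the PC3 arrays. In Cy3, 37% of its spots were well above background, against 44.2% to 45.5% on the PC3 arrays, and its upper quartile of raw signal was 42.5 against 71.1 to 74.5. No spot was saturated. Over probes well above background, the PC3 mocks correlated with each other at r = 0.9905 to 0.996 across probes, and C4-2 correlated with them at 0.8784 to 0.8851. PC3 mock 3 lay farther from mocks 1 and 2 (SD of the log2 difference 0.22 and 0.214) than these lay from each other (0.144). The latter was below the SD that repeated spots of 1 array give for the difference of a pair of spots (0.164 and 0.165 on these arrays), though 0.113% of their probes were over 1 apart. Mocks 1 and 2 were counted as 2 samples. Averaging them as 1 sample, an alternative chosen after seeing the data, gave 1673 higher and 1591 lower genes, and of the genes named below as called, EPCAM, HSD17B4, MMP1 and TRIB3 lost their calls. Of the markers of other cell types (blood, endothelium, fibroblasts, liver, bladder, kidney, muscle and glia), 8 of 20 passed the filter on dim probes, none was called, and their levels lay between 5.73 and 6.14 on all 4 arrays.

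Of 43317 genes on the array, 20148 were tested because they were well above background on the C4-2 array or on at least 2 PC3 arrays. In C4-2, 1728 genes were higher (8.58% of those tested) and 1695 were lower (8.41%), so that 17.0% of genes were called. The median difference over all tested genes was 0.00 and the median size of a difference was 0.35. At least 4-fold differences were reached by 440 higher and 464 lower genes, and at least 16-fold by 53 and 59. Median scaling in place of quantile normalization gave 655 higher and 3825 lower genes, a share of higher genes among the called of 14.6% against 50.5%, with the median of all genes at -0.24. The called genes had a median SD of 0.12 among the PC3 mocks.

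**Figure D1:**
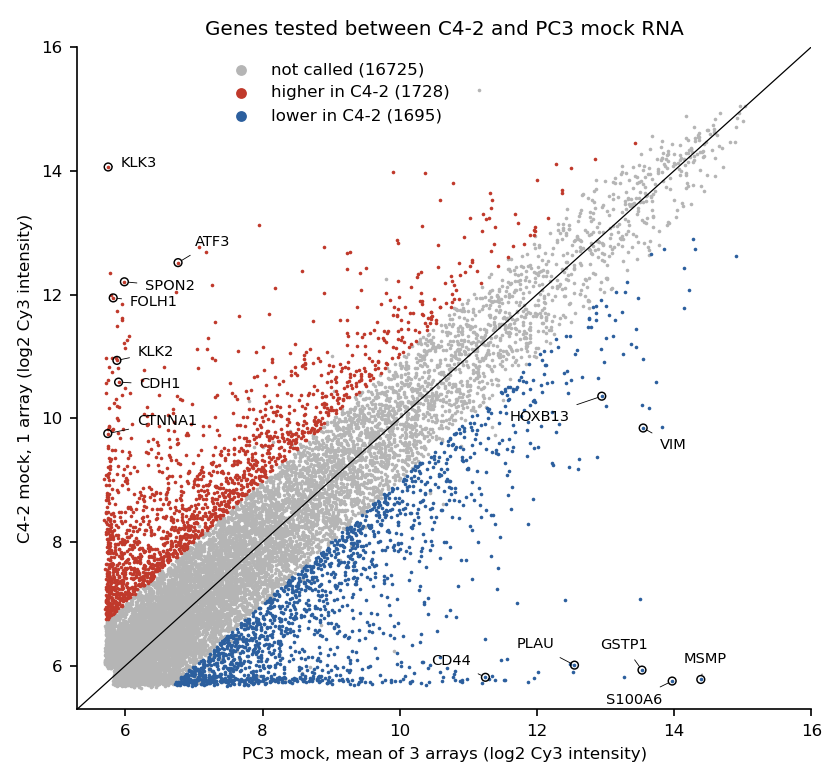
Each point is a tested gene, with the mean log2 Cy3 intensity of the 3 PC3 mocks on the x axis and that of the C4-2 mock on the y axis. Red points were higher in C4-2 (1728), blue points were lower (1695), gray points were not called (16725) and the diagonal marks equal levels. KLK3 stands alone at the upper left, at 5.75 in PC3 and 14.06 in C4-2, and MSMP, S100A6 and GSTP1 at the lower right.

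KLK3, which encodes prostate-specific antigen, had the largest difference of all genes higher in C4-2. Its raw Cy3 signals were 21.5, 22.6 and 22.2 in PC3 mocks 1, 2 and 3 and 13592 in C4-2, read by a probe at chr19:51363961-51364020 (GRCh37). The probe was not well above background on any PC3 array, so only a lower bound of at least 302-fold could be given for it (adjusted p = 0.000236, limma). KLK3 has 2 probes, and the other was well above background on at least 1 PC3 array, so the bound does not mean that KLK3 was undetected in PC3. KLK2, its neighboring gene and a protease of the same family, had log2 levels of 5.87, 5.89 and 5.87 in PC3, where it was well above background on 2 of 3 arrays, and 10.94 in C4-2, a difference of 5.06 (adjusted p = 0.000236, limma). Both genes were far above every PC3 mock. KLK2 and KLK3 are similar in sequence, so a part of the KLK2 signal may be KLK3 RNA.

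The stretches of 250 bases before the start sites of KLK3 and KLK2 are shown because an androgen response element is known in the proximal promoter of KLK3. They are RefSeq sequences of GRCh38.p14 on the plus strand, at chr19:50854665-50854914 and chr19:50873189-50873438. Capitals mark the best match to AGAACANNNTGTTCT, which reads the same on both strands.
KLK3: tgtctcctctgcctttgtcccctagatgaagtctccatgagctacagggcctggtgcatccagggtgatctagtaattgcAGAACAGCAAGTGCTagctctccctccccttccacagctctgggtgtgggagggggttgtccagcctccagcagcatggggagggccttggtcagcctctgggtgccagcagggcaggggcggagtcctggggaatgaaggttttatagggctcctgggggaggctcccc
KLK2: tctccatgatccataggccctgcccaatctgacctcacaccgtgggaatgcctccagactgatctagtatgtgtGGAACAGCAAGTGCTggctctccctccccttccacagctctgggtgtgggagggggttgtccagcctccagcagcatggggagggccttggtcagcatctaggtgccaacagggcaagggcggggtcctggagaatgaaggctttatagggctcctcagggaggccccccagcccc

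The KLK3 match lay at -170 to -156 from the start site and had 2 mismatches to the motif, T10A and T13G, counted from 1 at the 5' end of the motif. The KLK2 match lay at -176 to -162 and had 3, A1G, T10A and T13G, so that the matches differed from each other by A1G. Of 35116 RefSeq promoters of 300 bases, 1.41% held a match with at most 2 mismatches and 10.8% one with at most 3. These are descriptions of letters and do not show binding.

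Other androgen-responsive genes were higher in C4-2 as well. TMPRSS2, a transmembrane protease whose promoter is often fused to ETS genes in prostate cancer, read 6.44, 6.43 and 6.55 in PC3 and 9.24 in C4-2 (difference 2.76, adjusted p = 0.000456, limma). The PC3 mocks lay close together and C4-2 stood clear of them. The prostate membrane protein gene SLC45A3 (3.16), the metalloreductases STEAP2 (2.82) and STEAP1 (2.43), the lipid phosphatase PPAP2A, now PLPP1 (3.15), the zinc finger factor ZBTB16 (2.91), the centromere gene CENPN (2.92), the sorbitol dehydrogenase SORD (2.49) and KLK4 (2.05, at least 4.0-fold) were called too. FKBP5, a chaperone of steroid receptors that responds to both androgen and glucocorticoid, read 6.52, 6.43 and 6.44 in PC3 and 7.89 in C4-2 (difference 1.43, adjusted p = 0.000931).

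In all, 43 of 45 listed androgen-responsive genes on the array were tested, 19 were higher in C4-2 (44.2%, against 8.58% of all genes), 1 was lower (2.33%, against 8.41%) and 23 were not called. The list median was 0.80, against 0.00 over all genes. The lower gene was PTGER4, a prostaglandin receptor, with a difference of -1.08 (adjusted p = 0.0305, limma), and it lost its call without PC3 mock 2 (-0.91) or mock 3 (-1.02). Several well-known members did not pass: the calcium channel TRPM8 (0.97, just under the size limit), the stress-responsive NDRG1 (0.58), the elongation factor ELL2 (-0.60) and the kinase CAMKK2 (-0.68). Since 11 members were above background in C4-2 alone and could enter only by being higher there, the 27 members well above background on all 4 arrays were also counted. Of these 15 were higher and 1 lower with a median of 1.14, against 9.6% higher, 8.58% lower and a median of 0.07 over all such genes. The list was chosen with earlier results of these data known, and no test was made of it.

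**Figure D2:**
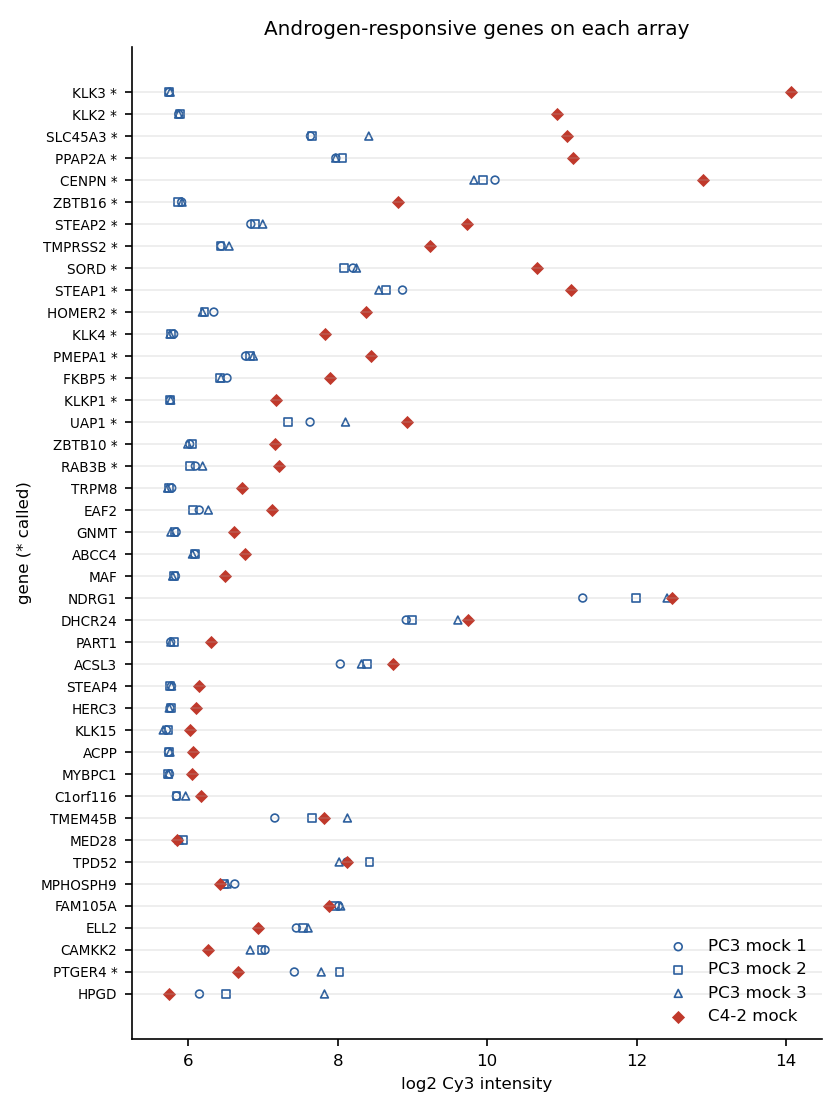
Log2 Cy3 intensity of 42 of the tested androgen-responsive genes, with 1 row for each gene, the 3 PC3 mocks as open blue symbols and the C4-2 mock as a filled red diamond. Asterisks mark called genes. C4-2 lay to the right of all 3 PC3 mocks in 33 genes and to the left in 7, and the genes toward the bottom overlap or invert. Over all 20148 tested genes, C4-2 lay above all 3 PC3 mocks in 44.1% and below all 3 in 44.2%.

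Transcription factors of the prostate lineage split between the lines. GATA2, a zinc finger pioneer factor, read 5.78, 5.74 and 5.95 in PC3, where it was well above background on 1 array, and 9.82 in C4-2 (difference 3.99, adjusted p = 0.000423, limma). HOXB13, a prostate homeobox factor, went the other way, with 12.67, 13.14 and 13.02 in PC3 and 10.36 in C4-2 (difference -2.59, adjusted p = 0.00235). Both lines were far above background for HOXB13. FOXA1, a further pioneer factor, read 8.40, 8.71 and 9.17 in PC3 and 9.32 in C4-2 and was not called (0.56, adjusted p = 0.214).

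NR3C1, the glucocorticoid receptor, was measured in PC3 alone. It read 8.62, 8.48 and 8.68 in PC3 and 5.76 in C4-2, where it was not well above background, so PC3 was at least 6.32-fold higher (adjusted p = 0.000641, limma). The mineralocorticoid receptor NR3C2 differed by -0.17 (adjusted p = 0.112), and the estrogen and progesterone receptors ESR1, ESR2 and PGR did not pass the filter. Among genes of steroid metabolism and coregulators, the epithelial factor GRHL2 (1.77, at least 3.21-fold), the corepressor NCOR1 (1.43) and the dehydrogenase HSD17B4 (1.03, or 0.97 and not called without PC3 mock 1) were higher in C4-2, and the reductase AKR1C3 (-1.97, at least 3.58-fold) was lower. Of the 34 genes of this list on the array, 23 were tested, and the median was 0.18. Of these 4 were higher and 4 lower, 17.4% each, against 8.58% and 8.41% of all genes. Near-identical reductase and UGT2B genes share sequence and their values are uncertain.

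PIR and HSF1, which were the subject of the bisamide arrays, differed little between the mocks. PIR, the iron-binding nuclear protein pirin, read 10.21, 10.21 and 10.01 in PC3 and 10.53 in C4-2 (difference 0.39, adjusted p = 0.0491, limma). HSF1, the heat shock transcription factor, read 11.99, 11.94 and 12.09 in PC3 and 11.69 in C4-2 (difference -0.32, adjusted p = 0.0410). Neither reached the size limit, and under median scaling the PIR difference was -0.45.

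Genes known to be deleted or mutated in one of the lines were examined as a check of the labels. CTNNA1, the alpha-catenin gene that is deleted in PC3, read 5.74, 5.75 and 5.74 in PC3 and 9.75 in C4-2 (at least 15.2-fold, adjusted p = 0.000236, limma). CTNNA1 was not above background in any PC3 mock, which went with the line named in the labels.

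The other lesion genes were less clear. JAK1, which is mutated in LNCaP cells, was above background in PC3 alone and differed by -0.52 (adjusted p = 0.00807), under the size limit. ETV1, an ETS factor that is rearranged in LNCaP cells, was lower in C4-2, with 7.33, 7.48 and 7.83 in PC3 and 5.83 in C4-2 (difference -1.72, PC3 at least 3.05-fold higher, adjusted p = 0.00632). That lesion is known to raise ETV1 in LNCaP cells. ETV1 has 4 probes, the call rested on the brightest, and it was lost with the mean over the probes.

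Luminal and junction genes were higher in C4-2. FOLH1, prostate-specific membrane antigen, read 5.83, 5.79 and 5.86 in PC3 and 11.95 in C4-2 (at least 69.5-fold, adjusted p = 0.000236, limma). CDH1, which encodes E-cadherin, read 5.76, 5.80 and 6.14 in PC3, where it was well above background on 1 array, and 10.58 in C4-2 (difference 4.68, adjusted p = 0.000672). The tight junction gene CLDN7 read 5.98, 5.98 and 6.04 in PC3 and 10.49 in C4-2 (difference 4.49, adjusted p = 0.000236). For all 3 genes the PC3 mocks sat at or near background. The membrane protease PRSS8 (5.86), the polarity gene CRB3 (4.0), the epithelial ETS factors EHF (3.80, at least 13.3-fold) and ELF3 (3.07), the prostate stem cell antigen PSCA (2.98), the transmembrane protease HPN (2.94, at least 7.25-fold) and the adhesion molecule EPCAM (2.77) followed. EPCAM read 7.07, 7.10 and 8.63 in PC3 and 10.37 in C4-2, and lost its call without PC3 mock 1 (2.48, adjusted p = 0.0988, limma) or mock 2 (2.50, adjusted p = 0.102). FOLH1 has a near-identical copy, FOLH1B, which also read higher in C4-2 (at least 35.4-fold), and the 2 cannot be told apart with certainty.

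Of the luminal genes, 29 of 29 on the array were tested, with a median of 1.70. In C4-2, 18 were higher (62.1%, against 8.58% of all genes), 2 were lower (6.90%, against 8.41%) and 9 were not called. Over the 17 members above background on all 4 arrays, 10 were higher (58.8%) and 1 lower (5.88%), with a median of 1.26. Over all such genes, 9.6% were higher and 8.58% lower, with a median of 0.07. Among the lower genes was the keratin KRT19, which read 13.52, 13.67 and 14.04 in PC3 and 10.59 in C4-2 (-3.15, adjusted p = 0.00183, limma). The luminal keratin KRT18 (0.42, adjusted p = 0.0764) and the claudin CLDN4 (-0.35, below the size limit) were not called.

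Basal genes were lower in C4-2. The hyaluronan receptor CD44 read 11.26, 11.25 and 11.24 in PC3 and 5.81 in C4-2 (PC3 at least 39.8-fold higher, adjusted p = 0.000236, limma). The 14-3-3 protein gene SFN read 11.30, 11.36 and 11.78 against 6.10 (-5.38), and the caveolin gene CAV1 read 9.96, 9.85 and 10.62 against 5.74 (PC3 at least 18.5-fold higher). No PC3 mock came near the C4-2 level in these genes. The integrins ITGB4 (-3.58, at least 11.9-fold) and ITGA6 (-2.03), the laminin chain LAMB3 (-3.23, at least 8.82-fold) and the keratins KRT7 (-3.08) and KRT15 (-2.24) were also lower, of which LAMB3 lost its call without PC3 mock 1 (-2.96) and KRT15 without mock 2 (-2.05). Of 24 basal genes on the array 15 were tested, with 11 lower (73.3%, against 8.41% of all genes), 1 higher and a median of -3.08. Of these, 7 were measured in PC3 alone and could enter only on that side. Of the 8 above background on all 4 arrays, 5 were lower (62.5%) and 1 higher (12.5%), with a median of -2.66. Over all such genes, 8.58% were lower and 9.6% higher, with a median of 0.07. The higher gene was EGFR, the epidermal growth factor receptor (1.65, adjusted p = 0.00402). Defining basal genes such as KRT5, KRT14 and TP63 did not pass the filter on either side, so neither line showed the full basal set.

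Mesenchymal genes were divided. The intermediate filament VIM read 13.48, 13.46 and 13.70 in PC3 and 9.84 in C4-2 (difference -3.71, adjusted p = 0.000592, limma), which in C4-2 was still well above background. N-cadherin, CDH2, read 9.94, 9.70 and 9.70 in PC3 and 5.78 in C4-2 (PC3 at least 14.4-fold higher, adjusted p = 0.000514). The receptor kinase AXL (-3.92), the cadherin CDH11 (-3.67, at least 11.1-fold), the E-cadherin repressor ZEB1 (-3.02, at least 7.46-fold) and the lysyl oxidase LOXL2 (-2.73, at least 6.12-fold) were lower in C4-2, whereas SNAI1, another repressor of E-cadherin (1.54), and LOX (1.23) were higher. Of 27 genes on the array 25 were tested, with a median of -0.67. Of these 9 were lower (36.0%, against 8.41% of all genes) and 2 higher (8.0%, against 8.58%). Over the 12 members above background on all 4 arrays the median was 0.08, with 3 lower (25.0%) and 1 higher (8.33%), so the list median rested on members measured in PC3 alone. All genes above background on all 4 arrays had a median of 0.07, with 8.58% lower and 9.6% higher.

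**Figure D3:**
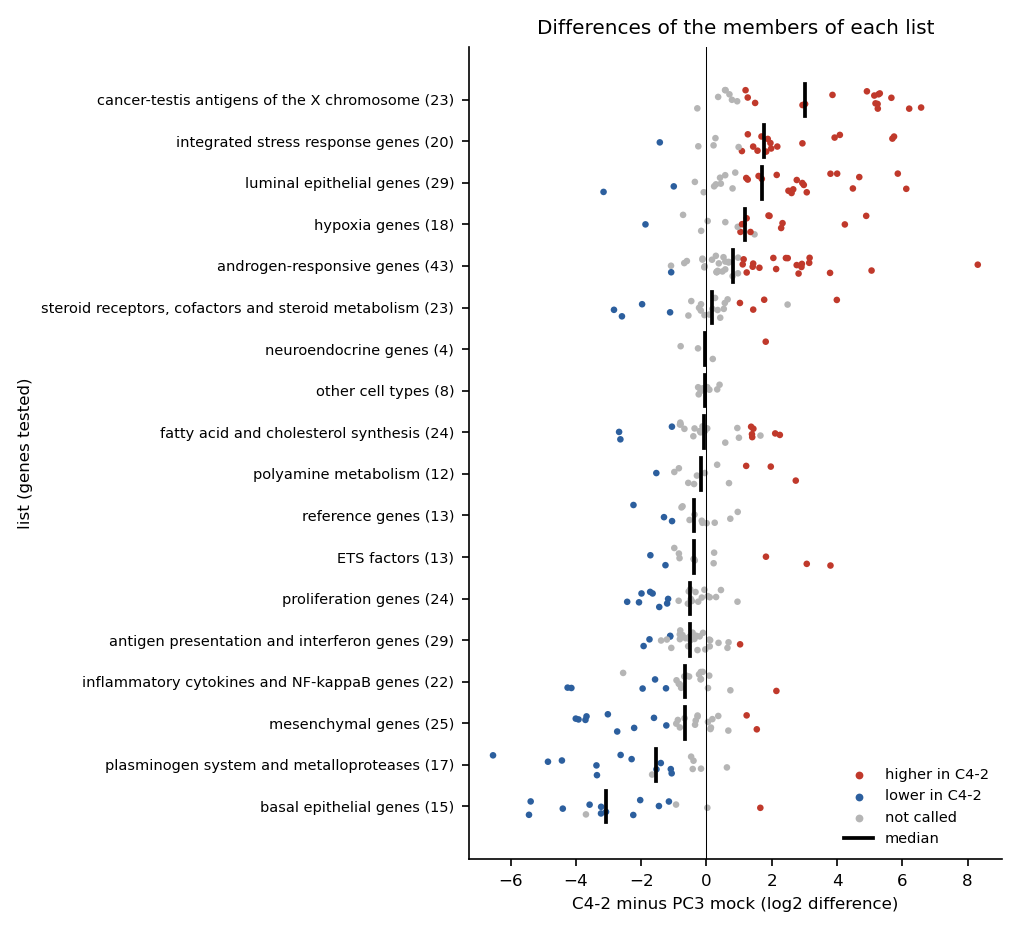
Each point is 1 tested gene of the list named on the y axis, placed by its difference C4-2 minus PC3 mock (log2), and the black bar is the list median. Red and blue points were called higher and lower in C4-2 and gray points were not called. Luminal genes (median 1.70) and androgen-responsive genes (0.80) lie mostly right of 0, and basal genes (-3.08) and the plasminogen and metalloprotease genes (-1.53) mostly left. Lists were chosen with results of these data known, and dim genes of 1 line can enter only on the side of that line.

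Proteases and their inhibitors at the cell surface were lower in C4-2. PLAU, urokinase, read 12.95, 12.33 and 12.36 in PC3 and 6.01 in C4-2 (difference -6.54, adjusted p = 0.000797, limma), the most negative difference among genes well above background on all 4 arrays. Its receptor PLAUR (-1.53, at least 2.53-fold), the tissue-type activator PLAT (-4.85, at least 25.6-fold), the metalloproteases MMP1 (-2.63, at least 5.44-fold), MMP14 (-1.40, at least 2.28-fold) and ADAM19 (-4.43, at least 19-fold), the inhibitors TIMP1 (-3.37, at least 9.3-fold) and TIMP2 (-2.29) and the serpin SERPINB5 (-3.35) were lower as well. Of 17 tested genes of 22 on the array, 11 were lower (64.7%, against 8.41% of all genes) and none was higher, with a median of -1.53. Of these, 9 were measured in PC3 alone and could enter only on that side. Of the 7 above background on all 4 arrays, 5 were lower (71.4%, against 8.58% of all such genes), with a median of -1.66 against 0.07. MMP1 read 7.73, 8.14 and 9.27 in PC3 and 5.75 in C4-2, and lost its call without PC3 mock 2 (-2.68, adjusted p = 0.0909, limma).

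Most inflammatory genes were not called, and those called were mostly lower. VEGFC, a lymphatic growth factor, read 9.97, 9.79 and 10.26 in PC3 and 5.75 in C4-2 (PC3 at least 16.8-fold higher, adjusted p = 0.000927, limma), and the chemokine CXCL1 read 9.66, 9.78 and 10.19 against 5.74 (at least 15.4-fold, adjusted p = 0.00116). LIF (-1.95), TNFAIP2 (-1.57) and CXCL2 (-1.24, at least 2.27-fold) were also lower, though TNFAIP2 (-1.58) and CXCL2 (-1.20) lost their calls without PC3 mock 1, and NFKBIA, the inhibitor of NF-kappaB, was higher (2.14). IL1B read 7.58, 7.34 and 10.08 in PC3 and 5.78 in C4-2 and was not called (-2.55, adjusted p = 0.161), since PC3 mock 3 lay far above the other mocks, and it was called without mock 3 (-1.59, adjusted p = 0.00465). Of 28 genes on the array 22 were tested, 5 were lower (22.7%, against 8.41% of all genes) and 1 was higher, with a median of -0.65. Since 9 members were measured in PC3 alone and could enter only on that side, the 10 members above background on all 4 arrays were also counted, of which 2 were lower and 1 was higher, with a median of -0.39.

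Beyond the lists, the genes well above background on all 4 arrays with the largest differences included secreted, stress and X-linked genes. SPON2, a secreted matrix protein, read 5.99, 5.93 and 6.04 in PC3 and 12.21 in C4-2 (difference 6.22, 74.5-fold, adjusted p = 0.000236, limma). LIMCH1, an actomyosin regulator (5.63), BEX2 (5.24), the growth factor binding protein IGFBP2 (4.51) and TSTD1 (4.37) were also among the 12 largest. BAMBI, a pseudoreceptor that restrains TGF-beta signaling, read 6.63, 6.57 and 8.34 in PC3 and 12.68 in C4-2 (5.50, adjusted p = 0.00976), with PC3 mock 3 above the other mocks. In C4-2 alone, the antisense RNA ST8SIA6-AS1 (at least 26.9-fold), PRUNE2 (24), the transcription factor IRX4 (20.2) and the adaptor EFS (16.6) were among the 10 largest bounds with FOLH1 and the cancer-testis genes described below.

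Among genes lower in C4-2, MET, the hepatocyte growth factor receptor, read 12.44, 12.60 and 12.42 in PC3 and 6.04 in C4-2 (difference -6.45, adjusted p = 0.000236, limma). LGALS1, galectin-1, read 13.30, 13.50 and 13.70 in PC3 and 7.08 in C4-2 (-6.42). The anthrax toxin receptor ANTXR2 (-5.45), the actin-sequestering TMSB4X (-5.35), CSRP2 (-4.80), ZNF503 (-4.70), the heat-inducible chaperone HSPA1A (-4.45), the annexin ANXA1 (-4.26), PRSS3P2 (-4.18) and C19orf33 (-4.02) completed the 12 smallest with PLAU and SFN. HSPA1A has a near-identical copy, so its value is uncertain.

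Some of the most abundant PC3 transcripts were not well above background in C4-2 at all. MSMP, a secreted microseminoprotein-like factor, had raw signals of 17705, 29997 and 20544 in PC3 and 20.6 in C4-2 (PC3 at least 351-fold higher, adjusted p = 0.000792, limma). GSTP1, the glutathione transferase whose promoter is methylated in most prostate cancers, read 13.51, 13.58 and 13.50 in PC3 and 5.93 in C4-2 (at least 194-fold). The calcium-binding proteins S100A6 (at least 263-fold) and S100A16 (43.8), the annexin ANXA2 (161), the sulfatase SULF2 (96.1), the fatty acid carrier FABP5 (68.0), the activin antagonist FST (64.8), the Wnt antagonist DKK1 (61.4) and ADIRF (48.3) made up the rest of the 10 largest. In RNA from bulk cells, fewer cells that express a gene and less RNA per cell cannot be told apart.

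A further group were the cancer-testis antigens of the X chromosome, genes normally silent outside the germ line. GAGE7 read 5.77, 5.78 and 5.77 in PC3 and 12.35 in C4-2 (at least 92.2-fold, adjusted p = 0.000236, limma), XAGE1B, now XAGE1A, was at least 71.9-fold and PAGE1 at least 35.5-fold higher. MAGEA6, which was well above background on all 4 arrays, read 6.94, 6.94 and 6.34 in PC3 and 12.05 in C4-2 (difference 5.31, adjusted p = 0.00111). GAGE2B read 7.64, 7.91 and 8.29 in PC3 and 13.13 in C4-2 (5.18). Of 47 such genes on the array 23 were tested, with a median of 3.02. Of these 16 were higher (69.6%, against 8.58% of all genes) and none was lower (against 8.41%). In C4-2 alone, 10 members were above background and could enter only by being higher there. This family was looked up after its members had been seen among the largest differences, and of the 5 members above background on all 4 arrays 3 were higher. The GAGE, MAGEA, XAGE, CTAG, CSAG and VCX genes are near-identical copies, so that 1 transcript may have lit several probes and the members do not count as separate observations.

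Genes of the integrated stress response, in which ATF4 switches on amino acid synthesis and feedback genes, were mostly higher in C4-2. ATF3, an immediate stress factor, read 6.62, 6.37 and 7.32 in PC3 and 12.52 in C4-2 (difference 5.75, adjusted p = 0.00181, limma). DDIT4, an inhibitor of mTOR signaling, read 6.61, 6.90 and 7.73 in PC3 and 12.77 in C4-2 (5.70, adjusted p = 0.00257). In both genes PC3 mock 3 was the highest PC3 value and still far below C4-2. NUPR1 (4.09), DDIT3 (3.93), the asparagine synthetase ASNS (2.94), the serine synthesis genes PHGDH (2.17) and PSAT1 (1.96), TRIB3 (1.98), CHAC1 (1.88) and ATF4 (1.83) were also higher, and ATF5 was lower (-1.43). Of 20 genes 15 were higher (75%, against 8.58% of all genes) and 1 lower (5%, against 8.41%), with a median of 1.76. In the Cy5 channel the list median was 0.60, and NUPR1, ASNS, PHGDH, PSAT1 and TRIB3 were no longer called. TRIB3 also lost its call without PC3 mock 2 (1.95, adjusted p = 0.0693, limma).

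Genes that respond to hypoxia followed the same direction. VEGFA, an angiogenic growth factor, read 7.09, 7.06 and 7.64 in PC3 and 12.16 in C4-2 (difference 4.89, adjusted p = 0.00116, limma), and ANKRD37 read 7.14, 7.32 and 7.48 against 11.55 (4.24, adjusted p = 0.000626). The mitophagy gene BNIP3 (2.33) and the kinase PDK1 (2.29), which diverts pyruvate from the mitochondria, were higher, and ADM, adrenomedullin, was lower (-1.87). Of 18 tested genes of 20 on the array, 11 were higher (61.1%, against 8.58% of all genes) and 1 was lower (5.56%, against 8.41%). The median was 1.19, and CA9 did not pass the filter. The stress and hypoxia lists were written after the extreme genes had been seen.

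The difference between the lines was also read in the Cy5 channel of the same arrays, which held treated RNA of each line. Of the 1728 genes higher in C4-2 mock, 1479 (85.6%) were called in the same direction in Cy5 and 1 (CAPRIN1) in the other, and of the 1695 lower genes 1440 (85.0%) and 0. The sign was the same in 1719 of 1727 and in 1694 of 1695 genes tested in that channel. In Cy5 as a whole, 9.37% of 23831 tested genes were higher and 8.64% lower. The channels share their arrays and cell lines, and the treatments differ between the lines, so Cy5 is not an independent replicate. KLK3 differed by 9.10 in Cy5.

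**Figure D4:**
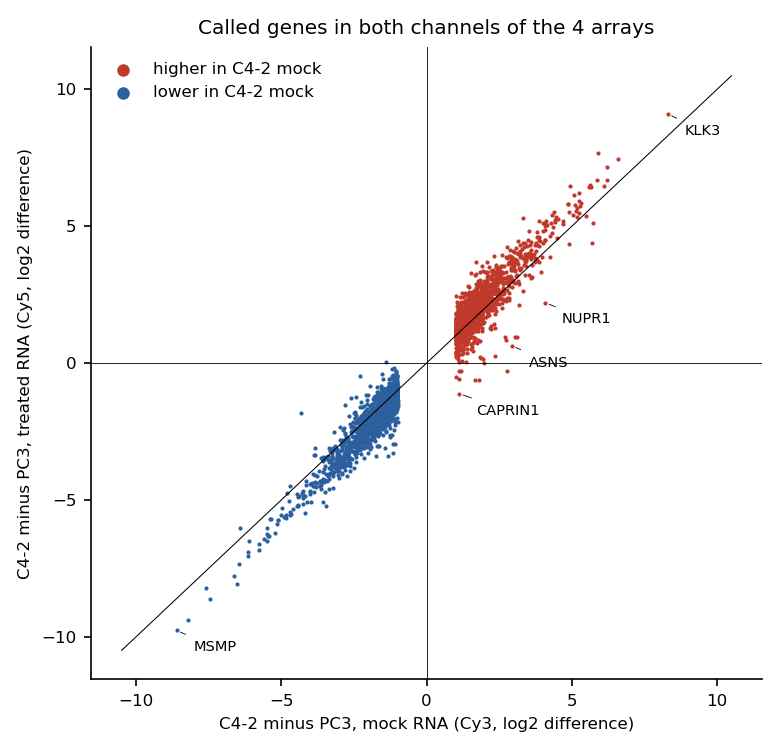
Each point is a gene called between the mocks, with its C4-2 minus PC3 difference in mock RNA (Cy3, log2) on the x axis and in treated RNA (Cy5, log2) on the y axis. Red points were higher and blue points lower in C4-2 mock, and the diagonal marks equal differences. Nearly all points keep their sign, with 1719 of 1727 higher and 1694 of 1695 lower genes on the same side of 0, and CAPRIN1 was called in opposite directions.

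The mocks of 786-O and T24 placed the prostate lines beside other cells, with all 8 arrays normalized together. The pairs of 786-O and of T24 mocks differed by an SD of 0.0929 and 0.0624, below that of a pair of repeated spots (0.124 and 0.142 on 786-O arrays, 0.161 and 0.139 on T24 arrays), with 0.00522% and 0% of probes over 1 apart, so each pair was averaged and counted as 1 sample. Among genes higher in C4-2 than in PC3, C4-2 lay above every mock of the other lines in 1494 (86.5%), and by at least 1 above both 786-O and T24 in 853 (49.4%). PC3 lay below the other lines in 706 (40.9%), and by at least 1 below both 786-O and T24 in 105 (6.08%). Among genes lower in C4-2, C4-2 lay below every other mock in 1356 (80%), by at least 1 below 786-O and T24 in 497 (29.3%). PC3 lay above all other lines in 1019 (60.1%), by at least 1 above 786-O and T24 in 359 (21.2%). The genes were chosen by their difference between C4-2 and PC3, so part of each order was fixed beforehand. Shares over all tested genes were not counted.

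Single genes took different places in that order. KLK3 was at 13.80 in C4-2 and at 5.75 in both 786-O and T24, level with PC3, and CDH1 was at 10.32 against 5.73 and 5.76. HOXB13 was at 5.73 in 786-O and 6.64 in T24, below both prostate lines. CTNNA1 was at 10.22 and 9.98, so that PC3, with the deletion, stood apart from the other 3 lines. GSTP1 (11.84 and 12.95), S100A6 (13.40 and 13.53), CD44 (12.46 and 12.01), MET (12.39 and 10.79) and LGALS1 (14.05 and 13.04) were high in every line but C4-2. MSMP (5.71 and 5.94) was high in PC3 and in none of the other lines.

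**Figure D5:**
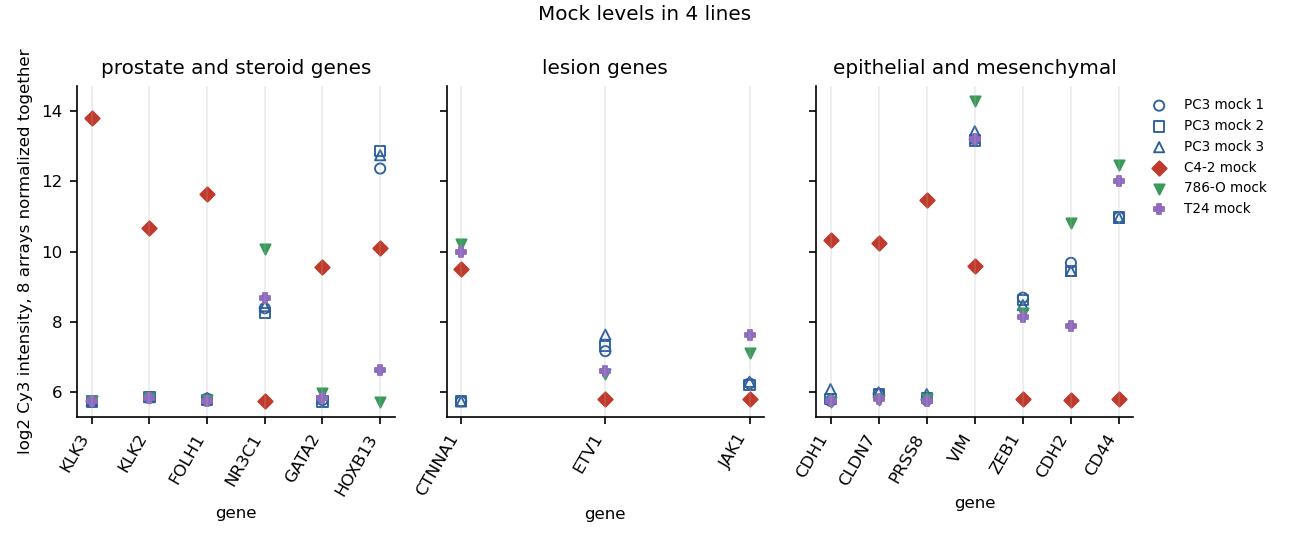
Log2 Cy3 intensity after normalizing all 8 arrays together (y axis) for prostate and steroid genes, genes with lesions in PC3 or the LNCaP lineage, and epithelial and mesenchymal genes (x axis). Open blue symbols are the 3 PC3 mocks, red diamonds the C4-2 mock, and green triangles and purple crosses the averaged mocks of 786-O and T24. KLK3 was high in C4-2 alone, CTNNA1 was at background in PC3 alone, and CD44 was at background in C4-2 alone.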

How the data were processed

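The authors' scanner software, Agilent Feature Extraction 11.5.1.1 per the file headers, wrote a mean intensity for every spot and a local background median. Both were linear, before any normalization, and probe coordinates were those of GRCh37. From the deposited intensities of the Cy3 channel of 4 arrays, values were corrected by the normexp method (offset 50), quantile normalized and put on the log2 scale with limma 3.58.1 in R 4.3.3. An array held 60901 spots of 58201 probes besides controls. Control spots and outlier spots (81 to 110 an array) were left out, spots of a probe were averaged, and a gene was represented by its probe with the highest mean. Genes well above background on the C4-2 array or on at least 2 PC3 arrays were fitted with lmFit and eBayes. The script was tested on simulated data. The number of arrays limits the precision.

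A gene measured in 1 line alone received a lower bound on its fold, from the mean of the bright line and, on each dim array, the higher of the probe's own level and the lowest level among probes well above background (5.79 to 5.94). Such a bound is on the normalized scale, and for KLK3 it is that of 1 of its 2 probes. Named were KLK3, PIR and HSF1, the 12 largest and 12 smallest called differences above background on all 4 arrays, the 10 largest bounds on each side, the lesion genes and steroid receptors, and up to 8 called members of each list with some that did not pass. Unnamed transcripts and chromosome Y were left out. Some genes that this rule chose, and 1 list, are not reported here, while counts and medians of the other lists cover all their members. The members and lists were chosen with earlier results of these data known. Names of 21864 representing probes were found by accession in RefSeq genes (GRCh38.p14), used for names only. Of the 45 androgen-responsive genes, 30 (66.7%) had a promoter in the RefSeq table where 80% was needed, so a share of the motif over the list was not computed. The deposited series table of log ratios was not used. Alternatives were other background corrections, normalizations, filters, probe rules and thresholds, the Cy5 channel, each PC3 mock left out and, chosen after seeing the data, PC3 mocks 1 and 2 averaged as 1 sample.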

Additional observations from a re-analysis of the deposited data

How the results depend on the processing

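No gene called between the mocks was called in the opposite direction under another background correction, scaling to a percentile or the median, filter, probe rule or threshold, while among the other alternatives TNXB turned from lower to higher with all 8 arrays in the fit and without PC3 mock 3, and CAPRIN1 from higher (1.12) to lower in Cy5 (-1.12). The counts, against 1728 higher and 1695 lower, rose to 3842 and 4318 without the normexp offset, to 3856 and 4360 when background was subtracted plainly, to 2584 and 2601 when it was left in, and to 4164 and 4739 on the scanner's processed signal. They were 655 and 3825 with median scaling, 836 and 860 with a size limit of 1.5, and 5663 and 4853 on adjusted p alone. Leaving out each PC3 mock in turn gave 1607 to 1714 higher and 1519 to 1701 lower genes. Of the called genes, 68.6% were called again with median scaling, 76.5% with the filter on all 4 arrays (which tests fewer genes), 78.9% with the mean over probes and 85.3% in Cy5, and at least 89.1% under the other alternatives except the size limit of 1.5 (49.5%). The loss with median scaling was on 1 side, since 652 of the 1728 higher genes and all 1695 lower genes were called again.

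List medians over 0.1 in size changed sign in 4 cases. With the filter on all 4 arrays, the ETS factors had a median of 0.23 (against -0.38) and the mesenchymal genes 0.08 (against -0.67). The polyamine genes had 0.05 in Cy5 (against -0.17), and the steroid list -0.19 under median scaling (against 0.18), with a shift of -0.24 of all genes. Smaller medians crossed 0 in 7 cases, among them fatty acid and cholesterol synthesis (0.36 in Cy5, against -0.08). The causes of the other changes were not tested. No paired analysis was possible because C4-2 had 1 mock array, which shares 1 replicate number with PC3. Signal over background limited the comparison, since 3331 tested genes were above background in PC3 alone and 869 in C4-2 alone.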

Other observations

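Genes of lipid synthesis moved in both directions between the mocks. The transcription factors SREBF1 (2.25) and SREBF2 (1.37), which switch on fatty acid and sterol synthesis, were higher in C4-2 with ACACA (1.44), SCD (1.40) and ACLY (1.39) of fatty acid synthesis and FDFT1 (2.11) of sterol synthesis. The sterol enzymes SQLE (-2.64, adjusted p = 0.00171, limma) and LSS (-1.06) were lower. LSS lost its call without PC3 mock 2 (-0.90). SREBF2, ACACA, SCD and ACLY were not called with median scaling, and SCD was not called in Cy5 either (0.52). Of 24 genes 6 were higher (25%, against 8.58% of all genes) and 3 lower (12.5%, against 8.41%), with a median of -0.08. Among 12 genes of polyamine metabolism, SAT1, which degrades polyamines (2.74), ARG2 (1.97) and AMD1 (1.22) were higher. ODC1, the first enzyme of the pathway, was lower (-1.54), and 8 were not called. That is 25% higher and 8.33% lower, against 8.58% and 8.41% of all genes. AMD1 was not called with median scaling, and ODC1 was not called in Cy5 (-1.26).

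Among 24 proliferation genes 8 were lower in C4-2 (33.3%, against 8.41% of all genes) and none was higher, with a median of -0.49. TYMS, the thymidylate synthase, read 12.52, 12.24 and 12.23 in PC3 and 9.90 in C4-2 (-2.43, adjusted p = 0.00136, limma), and BIRC5 (-2.07), MCM3 (-1.99), PCNA (-1.72) and MCM6 (-1.65) followed, while MKI67 differed by -0.48 (adjusted p = 0.0548). Of 13 genes often used as references 3 were lower (23.1%, against 8.41% of all genes). These were TFRC (-2.24), YWHAZ (-1.30) and HPRT1 (-1.05, or -0.97 and not called without PC3 mock 3), while GAPDH (0.25) and ACTB (-0.14) were not called. Of 29 tested genes of antigen presentation and interferon response, HLA-C was higher (1.03) and TAP2 (-1.92), IFIT2 (-1.74), ERAP2 (-1.11, at least 2.12-fold) and PSMB8 (-1.11) were lower, which is 3.45% higher and 13.8% lower, against 8.58% and 8.41% of all genes. HLA-C lost its call without PC3 mock 1 and IFIT2 without mock 2. HLA genes are polymorphic and share sequence, and how well the probes match the alleles of each line was not tested. Of 19 neuroendocrine genes on the array 4 were tested, and SYT4 was higher (1.82, at least 3.39-fold), while CHGA, SYP and NCAM1 did not pass the filter.

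PC3 mock 3 stood apart from PC3 mocks 1 and 2 by over 1 in 79 genes upward and 16 downward, and mocks 1 and 2 were over 1 apart in 26. The trefoil factors, secreted peptides of mucous epithelia, were among them, and the genes named here and the chromosomes below were chosen after their values were seen. TFF3 read 7.29, 7.60 and 11.46 in PC3 mocks 1, 2 and 3 and 8.55 in C4-2, TFF2 read 8.02, 7.94, 10.57 and 6.66, and TFF1 read 8.97, 9.01, 10.81 and 6.54. RBP4, a retinol carrier, read 7.47, 7.75, 10.85 and 5.98, and AGR2, an endoplasmic reticulum protein of mucous cells, read 6.98, 8.73, 10.02 and 5.89. Of the 79 genes, 10 were called higher and 15 lower in C4-2, against 8.58% and 8.41% of all genes tested.

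Called genes were not spread evenly over the chromosomes. On chromosome 21, 20.5% of 273 tested genes were lower in C4-2 and 6.23% higher, with a median of -0.20, and on chromosome 20, 14.8% of 540 were lower and 5.74% higher (-0.15). On chromosome 9, 12.2% of 835 were higher and 4.31% lower (0.15), and on chromosome 22, 12.6% of 525 were higher and 4.19% lower (0.14). Over all 23 chromosomes counted, 8.54% were higher and 8.42% lower. No test was made of these shares.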
